A study of Homo sapiens with 6 samples.

Results

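The genes described here are HIF factors, oxygen sensors and hypoxia markers: HIF1A, EPAS1, ARNT, EGLN1, EGLN2, EGLN3, HIF1AN, VHL, NDRG1 and CA9. They were taken by name from the deposited count table, and all 10 were found among its 20030 gene names. Hypoxia-inducible factor (HIF) is a dimer of an oxygen-labile alpha subunit, encoded by HIF1A or EPAS1 (HIF-2 alpha), and a stable beta subunit, encoded by ARNT. When oxygen is present, the prolyl hydroxylases EGLN1, EGLN2 and EGLN3 (PHD2, PHD1 and PHD3) modify the alpha subunit, the VHL ubiquitin ligase then marks it for breakdown, and HIF1AN (FIH) hydroxylates an asparagine that the coactivators EP300 and CREBBP need free. This control acts mainly on the protein, so transcript levels of HIF1A and EPAS1 do not measure HIF activity, whereas EGLN3, NDRG1 and CA9 are widely used transcript readouts of it. In the ovary, HIF is known for its part in the avascular follicle and in the vessel growth of the corpus luteum.

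All libraries came from KGN, labelled as a granulosa-like tumour line of human origin, harvested 48 h after transfection. The 3 control libraries (genotype WT in the labels) received a negative control siRNA, and the other 3 (genotype SNHG5 knockdown) an siRNA against the long noncoding RNA SNHG5. The labels give 5% CO2 and no oxygen level, name no hypoxia treatment, and do not say whether the replicates were separate cultures, so p-values measure the spread between these libraries only. SNHG5 itself was not analysed here. Total counts were 18232634 to 22088913 per library. The counts of SNHG5 siRNA replicate 2 differed more from those of its group (chi-square over its degrees of freedom 8.69 and 8.91) than in any other within-group pair (1.91 to 4.44). Of the granulosa markers, FOXL2, INHBA, NR5A1 and STAR had 19.3 to 59.4 CPM (counts scaled to library size) with control siRNA. AMHR2 had 3 and 0 counts over the control and SNHG5 siRNA libraries, INHA 24 and 11, and CYP19A1 14 and 22. FSHR fell from 3.25 to 1.47 CPM. The endothelial marker CDH5, of a cell type known for EPAS1, and the theca markers CYP17A1 and INSL3 were at 0 counts in all 6 libraries. PECAM1 had 17 and 15 counts over the control and SNHG5 siRNA libraries, VWF 94 and 107, the leukocyte marker PTPRC 138 and 117, CD14 6 and 11, and the epithelial markers EPCAM 9 and 11 and CDH1 73 and 49. In such bulk samples, fewer cells of a type and less RNA per cell cannot be told apart.

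With SNHG5 siRNA, the hypoxia marker EGLN3 fell by 54.8%, NDRG1 fell by 42.9% and CA9 fell by 39.97%. Of the alpha subunit genes, EPAS1 fell by 21.6% and HIF1A fell by 11.2%, and the hydroxylase gene EGLN2 rose by 17.2%. ARNT, EGLN1, HIF1AN and VHL did not pass the test. Over the 10 genes that is 1 higher, 5 lower and 4 not passing at an adjusted p under 0.05 (edgeR's quasi-likelihood test, Benjamini-Hochberg adjustment over all 12508 genes tested). Of all genes tested, 40.2% passed, 20.3% higher and 19.9% lower. In 9 of the 10 genes the groups had separate CPM ranges, against 49.8% of all genes tested. With upper quartile scaling in place of TMM, 39.9% of all passing genes were higher, against 50.5%.

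**Figure D1:**
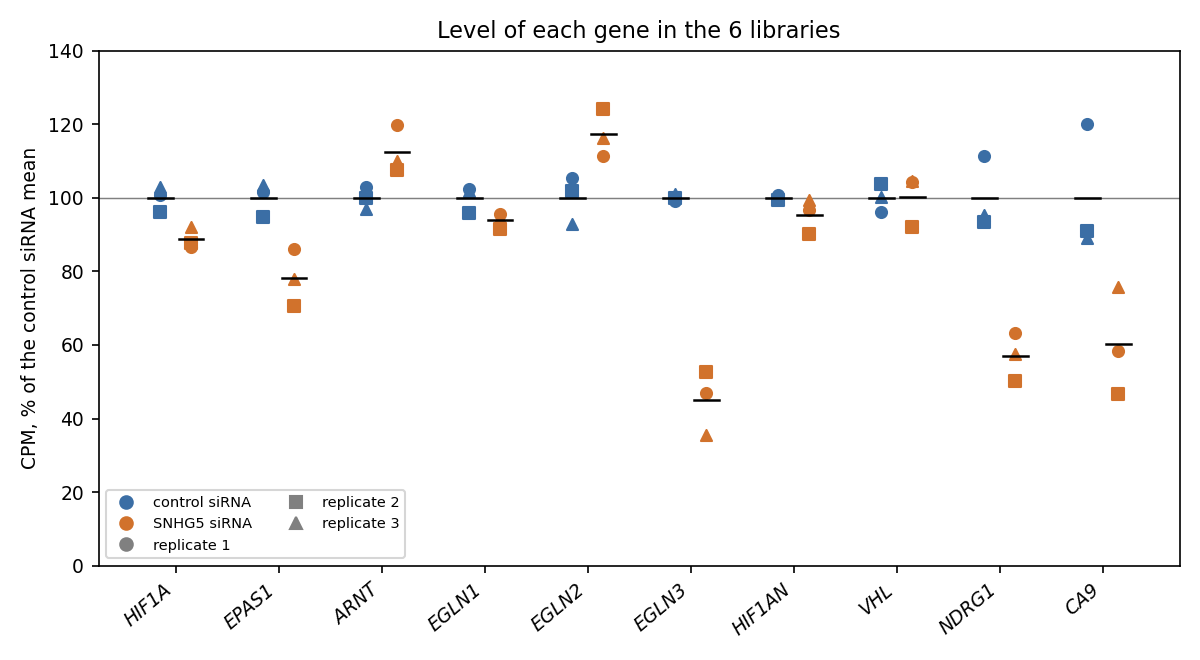
CPM of each gene in each library as a percent of that gene's mean over the 3 control siRNA libraries (y axis); blue, control siRNA; orange, SNHG5 siRNA; marker shapes, replicate numbers; black lines, group means. The SNHG5 siRNA means of EGLN3, NDRG1 and CA9 lie lowest, those of EGLN2 lie above its control points, and only VHL has overlapping groups.

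HIF binds DNA at the core word ACGTG or GCGTG. The 300-base windows from 250 bases before to 50 after the start site (RefSeq, GRCh38.p14) were found for 8 of the 10 genes, all but VHL and NDRG1, and searched on both strands. Those of CA9 and EGLN3, which both fell, and of EGLN2, which rose, are shown 5′ to 3′ on the gene's strand, with cores in capitals. CA9 lies at chr9:35673678-35673977 (plus strand), EGLN3 at chr14:33951025-33951324 (minus strand) and EGLN2 at chr19:40798941-40799240 (plus strand).
CA9: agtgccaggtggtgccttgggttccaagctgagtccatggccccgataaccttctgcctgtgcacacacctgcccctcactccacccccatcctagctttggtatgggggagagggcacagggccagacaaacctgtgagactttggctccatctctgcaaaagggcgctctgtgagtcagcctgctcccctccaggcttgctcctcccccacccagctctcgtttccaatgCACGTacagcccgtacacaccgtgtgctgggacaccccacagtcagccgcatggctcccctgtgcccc
EGLN3: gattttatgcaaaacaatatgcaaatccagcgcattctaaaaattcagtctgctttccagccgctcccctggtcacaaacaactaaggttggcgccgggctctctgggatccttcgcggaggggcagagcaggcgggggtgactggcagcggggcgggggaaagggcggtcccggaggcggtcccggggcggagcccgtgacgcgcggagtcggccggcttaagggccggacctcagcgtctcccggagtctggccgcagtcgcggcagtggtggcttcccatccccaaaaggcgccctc
EGLN2: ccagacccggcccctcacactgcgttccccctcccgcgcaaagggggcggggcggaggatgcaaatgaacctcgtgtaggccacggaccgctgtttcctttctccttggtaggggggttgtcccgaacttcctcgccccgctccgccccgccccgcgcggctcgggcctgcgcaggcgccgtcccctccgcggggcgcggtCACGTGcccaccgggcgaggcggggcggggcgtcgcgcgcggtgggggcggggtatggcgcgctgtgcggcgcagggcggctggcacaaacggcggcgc
The CA9 window holds 1 core, starting at position -18 relative to the start site. The EGLN2 window holds 1 palindrome that reads as a core on each strand, at -49 and -48, so its 2 matches overlap. EGLN3 has no match in this window. Only 1 start site per gene was searched. The EGLN3 window lies far inside the GENCODE v29 span of this minus-strand gene, which ends at 34462774. Those of EPAS1, HIF1AN and EGLN1 also lie inside their spans, so other annotated starts were not searched. HIF1A (-204), EPAS1 (-117) and EGLN1 (-13) have 1 match each, and ARNT and HIF1AN have 0. Among 35116 such windows 48.4% hold at least 1 core, so a match is common, and it is a description of the letters and not of binding.

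The series title names miR-92a-3p, so the 3′ UTRs of the 10 genes (GENCODE v29) were searched for GTGCAAT, the word that pairs with its seed. The mature microRNA (RefSeq, GRCh38.p14) is shown with its seed, bases 2 to 8, in capitals, and the site of HIF1AN with the matching word in capitals.
hsa-miR-92a-3p: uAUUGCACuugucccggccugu
HIF1AN site: gaatatatataGTGCAATatagtgtagtg
The HIF1AN site starts at base 7742 of a 3′ UTR of 11861 bases. ARNT has the word in the 274-base 3′ UTR of an alternative transcript, and no match was found in the other 8 genes. The word occurs in an annotated 3′ UTR of 16.1% of 12295 tested genes that have such an annotation. Neither HIF1AN nor ARNT passed the test.

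Levels can be compared between genes only per length, for which the authors' FPKM (by definition a fragment count divided by gene length and by depth) were used. Between the groups the FPKM did not move exactly as the counts did. The log2 fold change of EGLN2 was 0.38 in FPKM with 1 added and 0.23 in counts, and that of HIF1A -0.23 and -0.17. FPKM and counts thus did not differ by a fixed length per gene alone, and the cause was not tested. HIF1A stood far above the rest, at 218 ± 7.66 FPKM with control siRNA (SD, n = 3), rank 193 of the 12508 tested genes by mean FPKM over the 6 libraries. The next were EGLN2 at 21.0 ± 0.264 and EGLN1 at 19.8 ± 0.881 FPKM, whose control libraries overlapped. VHL followed at 12.1 ± 0.709 FPKM. HIF1AN (10.7 ± 0.0864), EPAS1 (10.3 ± 0.436) and NDRG1 (10.0 ± 0.752 FPKM) overlapped each other. CA9 (6.74 ± 0.969), ARNT (4.29 ± 0.180) and EGLN3 (3.59 ± 0.0784 FPKM) were lowest, with no overlap between them. With SNHG5 siRNA the order changed in places: EGLN2 (27.8 ± 2.24 FPKM) no longer overlapped EGLN1 (17.7 ± 0.819), NDRG1 (5.89 ± 0.741) no longer overlapped EPAS1 (8.41 ± 0.790), and CA9 (4.35 ± 0.997) overlapped ARNT (5.00 ± 0.292).

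**Figure D2:**
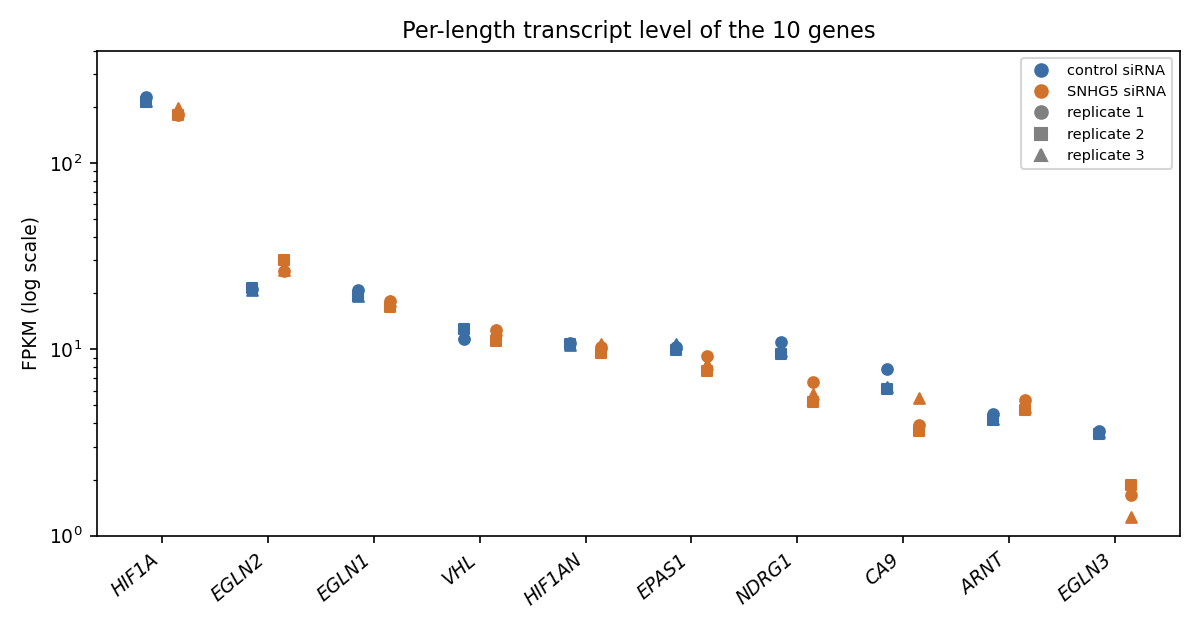
FPKM of the 10 genes in each library on a log axis, ordered by the control siRNA mean; blue, control siRNA; orange, SNHG5 siRNA; marker shapes, replicate numbers. HIF1A lies near 200 FPKM and EGLN3 lowest, at 3.59 FPKM on average with control siRNA and 1.60 with SNHG5 siRNA.

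Among the HIF subunits, HIF1A (chromosome 14, 61695513 to 61748259, plus strand, GRCh38) had 1284, 1226 and 1313 CPM with control siRNA and 1104, 1119 and 1171 CPM with SNHG5 siRNA. All 3 SNHG5 siRNA libraries lay below the lowest control library. HIF1A-AS1 and HIF1A-AS2 on the other strand and AL137129.1 on the same strand overlap HIF1A. Whether the counting used strand is not given, so their reads could enter the value of HIF1A. The log2 fold change was -0.17 ± 0.05 (SE; adjusted p = 0.00632 by edgeR). EPAS1 (chromosome 2, 46293667 to 46386703, plus strand) had 69.2, 64.5 and 70.5 CPM with control siRNA, against 58.7, 48.1 and 53.1 with SNHG5 siRNA, again with no overlap. Its log2 fold change was -0.35 ± 0.07 (adjusted p = 4.99e-04 by edgeR), and -0.28 without SNHG5 siRNA replicate 2, its lowest library. HIF1A made up 95.5% ± 0.210 of the summed FPKM of the alpha subunits with control siRNA and 95.7% ± 0.438 with SNHG5 siRNA (n = 3 each). The libraries overlapped in this share (exact 2-sided permutation p = 0.6, where 3 against 3 cannot go below 0.1). The difference in the share was 0.182 percentage points, 0.0552 to 0.435 with 1 library left out and 0.571 from counts with no length scaling. The HIF1A share depends only on the ratio of EPAS1 to HIF1A in each library, so its test also compares their falls. It did not show that EPAS1 fell more than HIF1A, nor did counts with no length scaling (exact 2-sided permutation p = 0.2).

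ARNT (chromosome 1, 150809705 to 150876768, minus strand), the beta subunit, had 34.4, 33.4 and 32.4 CPM with control siRNA, against 40.02, 35.9 and 36.8 with SNHG5 siRNA. Every SNHG5 siRNA library lay above the controls, with a log2 fold change of 0.17 (95% interval 0.03 to 0.31) that did not pass over all genes (adjusted p = 0.0571 by edgeR). Without SNHG5 siRNA replicate 2 it was 0.21 and passed (adjusted p = 0.0128 by edgeR), as it did with 3 other alternatives given at the end. Its paralog ARNT2, which can also pair with alpha subunits, had a mean of 25.5 FPKM over the 6 libraries against 4.64 for ARNT. With SNHG5 siRNA, ARNT2 fell (log2 fold change -0.30), from 237 ± 5.94 CPM to 192 ± 3.79.

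Of the 3 prolyl hydroxylase genes, EGLN3 fell, EGLN2 rose and EGLN1 did not pass. EGLN3 (chromosome 14, 33924231 to 34462774, minus strand), itself a HIF target, had 10.0, 10.1 and 10.2 CPM with control siRNA, against 4.74, 5.33 and 3.60 with SNHG5 siRNA, from 186 to 205 and 70 to 106 counts. The control libraries lay close together and the SNHG5 siRNA libraries were spread, with coefficients of variation of 1.07% and 19.3%. The log2 fold change was -1.15 ± 0.13 (adjusted p = 1.13e-06 by edgeR), or 2.21-fold lower. Leaving out any 1 library gave -1.26 to -1.01. SPTSSA, which overlaps the annotated span of EGLN3 on the same strand, moved the other way and passed (0.31). EGLN3-AS1 on the other strand and the pseudogene AL356806.1 on the same strand also overlap EGLN3. The strand setting of the counting is not given, so their reads could enter the value of EGLN3.

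EGLN2 (chromosome 19, 40798996 to 40808433, plus strand) had 55.8, 54.0 and 49.2 CPM with control siRNA, against 59.0, 65.8 and 61.7 with SNHG5 siRNA. The groups did not overlap, and the log2 fold change was 0.23 ± 0.06 (adjusted p = 0.00834 by edgeR). Without control siRNA replicate 3, the lowest library, it was 0.18 and did not pass (adjusted p = 0.0522 by edgeR). In FPKM the rise was larger, 0.38 with 1 added before the log. The read-through gene RAB4B-EGLN2 overlaps EGLN2 on the same strand and has no row under that name in the count table used here. How reads shared by them were counted is not known, which makes the value of EGLN2 uncertain. RAB4B had -0.11 and did not pass.

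EGLN1 (chromosome 1, 231363751 to 231425044, minus strand), the main hydroxylase of HIF-1 alpha in most cells, had 141.9, 132.7 and 141.0 CPM with control siRNA, against 132.6, 126.9 and 130.8 with SNHG5 siRNA. The highest SNHG5 siRNA library of EGLN1 lay just below its lowest control library. The log2 fold change of -0.09 (95% interval -0.20 to 0.02) did not pass (adjusted p = 0.179 by edgeR). It passed with upper quartile scaling (-0.13) and with the GC trend removed (-0.13).

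Of the summed FPKM of EGLN1, EGLN2 and EGLN3, EGLN3 took 7.99%, 7.96% and 8.27% in the control siRNA libraries against 3.61%, 3.82% and 2.72% in the SNHG5 siRNA libraries. EGLN2 took 47.3% ± 0.975 and 58.9% ± 2.67 (SD, n = 3 each). EGLN1 took 43.8% to 45.7% and 34.3% to 39.5%, with means of 44.6% and 37.7%. None of the 3 shares overlapped between the groups (exact 2-sided permutation p = 0.1 each, the smallest possible). The sum itself was 44.5 ± 1.03 FPKM with control siRNA and 47.1 ± 1.64 with SNHG5 siRNA (exact 2-sided permutation p = 0.1). This rise of the sum was not seen in CPM, which is not scaled to length. There the control and SNHG5 siRNA means were 138.5 and 130.1 for EGLN1, 53.0 and 62.2 for EGLN2, and 10.1 and 4.56 for EGLN3. The direction of the sum therefore depends on the unit. In both units the mean of EGLN2 rose and those of EGLN1 and EGLN3 fell, so the EGLN2 share rose in both. The size of that rise depends on the unit, as EGLN2 rose more in FPKM than in counts.

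**Figure D3:**
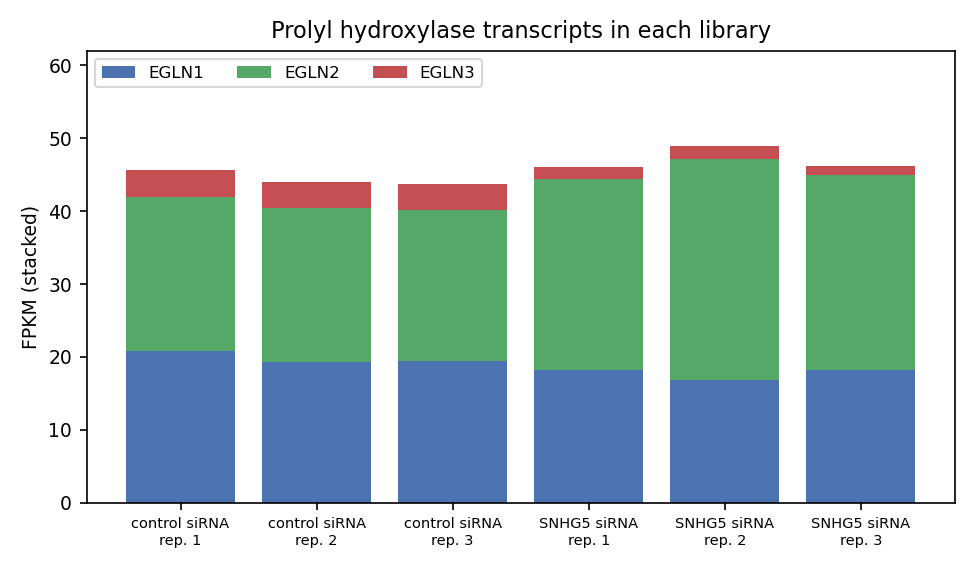
FPKM of EGLN1, EGLN2 and EGLN3 stacked for each of the 6 libraries, so bar height is their sum. The EGLN3 segment is thinner in every SNHG5 siRNA library (1.26 to 1.87 FPKM) than in any control library (3.50 to 3.65 FPKM), and the EGLN2 segment is thicker.

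HIF1AN (chromosome 10, 100529072 to 100559998, plus strand) had 91.4, 90.3 and 90.6 CPM with control siRNA, against 87.8, 81.8 and 90.2 with SNHG5 siRNA. Replicate 3 of the SNHG5 siRNA group was almost level with the controls, and the log2 fold change of -0.07 (95% interval -0.18 to 0.05) did not pass (adjusted p = 0.349 by edgeR). It was -0.03 without SNHG5 siRNA replicate 2, its lowest library, and -0.11 with upper quartile scaling, neither passing. NDUFB8, a respiratory complex gene that overlaps HIF1AN on the other strand, had -0.19 and passed (adjusted p = 0.0339 by edgeR). Whether the counting used strand is not given in the sources used here, so NDUFB8 reads could enter the value of HIF1AN. VHL (chromosome 3, 10141008 to 10152220, plus strand), the substrate receptor of the ligase, had 62.3, 67.1 and 64.8 CPM with control siRNA, against 67.6, 59.5 and 67.6 with SNHG5 siRNA. The groups overlapped, and the interval of its log2 fold change ran from -0.13 to 0.14 (adjusted p = 0.959 by edgeR).

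NDRG1 and CA9 are downstream markers and not parts of the sensor. NDRG1 (chromosome 8, 133237171 to 133302022, minus strand), a stress-responsive growth regulator induced by hypoxia, had 72.5, 60.9 and 62.2 CPM with control siRNA, against 41.3, 32.8 and 37.5 with SNHG5 siRNA. The groups did not overlap. On the log2 scale the difference was -0.81 ± 0.08 (adjusted p = 2.75e-07 by edgeR), and -0.72 without SNHG5 siRNA replicate 2. CA9 (chromosome 9, 35673856 to 35681159, plus strand), a membrane carbonic anhydrase that regulates pH, had 13.7, 10.4 and 10.2 CPM with control siRNA, against 6.68, 5.33 and 8.65 with SNHG5 siRNA. Of the 10 genes it varied most within both groups, with coefficients of variation of 17.4% and 24.2%, yet the groups did not overlap. Its log2 fold change was -0.74 ± 0.15 (adjusted p = 6.15e-04 by edgeR), -0.58 without control siRNA replicate 1 or without SNHG5 siRNA replicate 2, and -0.92 without SNHG5 siRNA replicate 3. ARHGEF39, on the other strand across part of CA9, had 0.04 and did not pass.

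The libraries did not rank alike across the markers. SNHG5 siRNA replicate 2, which differed most from its group, was the lowest of all 6 for EPAS1, NDRG1 and CA9 and the highest of its group for EGLN3 and EGLN2. Replicate 3 of that group was the lowest for EGLN3 and the highest of its group for CA9. Without replicate 2, the falls of EGLN3 (-1.26), NDRG1 (-0.72), CA9 (-0.58), EPAS1 (-0.28) and HIF1A (-0.16) and the rise of EGLN2 (0.19) all still passed.

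Around these genes, 20 regulators of HIF were listed, of which 19 were tested; 2 rose, 9 fell and 8 did not pass (57.9% passing, against 40.2% of all genes), with a median log2 fold change of -0.13 against -0.01 over all genes tested. In FPKM with 1 added, 2 rose and 4 fell, so 31.6% of these regulators passed against 31.9% of all genes, and the higher share in counts did not hold. HIF3A, a further alpha subunit, was at 0 in every library. Those that rose were SIAH2 (0.52), a ubiquitin ligase that acts on prolyl hydroxylases, from 30.1 ± 0.448 to 43.1 ± 1.62 CPM, and WSB1 (0.40), a ligase adaptor known to act on VHL. CITED2 (-0.48), which competes with HIF for EP300 and is itself a HIF target, fell from 327 ± 17.3 to 233 ± 6.12 CPM. ARNT2 (-0.30) and ELOB (-0.28), which encodes elongin B of the VHL ligase, also fell, but ELOB did not pass in FPKM (-0.16 with 1 added). ELOC, which encodes its partner elongin C and is named after its values were seen, had 0.02 (95% interval -0.12 to 0.17) and did not pass.

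Of 32 tested HIF target genes outside glycolysis (35 listed), 5 rose, 14 fell and 13 did not pass, with a median log2 fold change of -0.22. That is 59.4% passing, and 56.2% in FPKM with 1 added. Of all genes tested, 40.2% passed in counts (20.3% higher, 19.9% lower) and 31.9% in FPKM with 1 added. PLOD2, a collagen lysyl hydroxylase, fell from 473 ± 27.3 to 289 ± 14.2 CPM (-0.71). RAB20 (-0.69), a small GTPase, the secreted STC2 (-0.67) and P4HA1 (-0.62), a collagen prolyl hydroxylase subunit, also fell. ERO1A, an oxidase of the endoplasmic reticulum, went the other way, from 74.4 ± 2.17 to 163 ± 13.9 CPM (1.13). Among the other genes that rose, named after their values were seen, were LOX (0.55), TFRC (0.45) and STC1 (0.29). Of further targets named after their values were seen, VEGFA, the vessel growth factor, fell from 96.2 ± 8.20 to 72.8 ± 8.11 CPM (-0.40) and the mitophagy receptor BNIP3 by 0.36. ADM, a vasodilator peptide gene, had -0.41 and passed, but did not once control siRNA replicate 1 (-0.28) or SNHG5 siRNA replicate 1 (-0.29) was left out. Among the 13 that did not pass, also named after their values were seen, were PLOD1 (-0.01), P4HA2 (0.14), BNIP3L (-0.02) and CA12 (0.03). EPO, ANGPTL4 and CXCR4 were too low to be tested.

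Of 22 HIF targets of glycolysis, 1 rose, 13 fell and 8 did not pass, with a median log2 fold change of -0.23. That is 63.6% passing, against 40.2% of all genes tested (20.3% higher, 19.9% lower). In FPKM with 1 added, 50% of this list passed, against 31.9% of all genes. The glucose transporter genes SLC2A3 (-0.48) and SLC2A1 (-0.41), PDK1 (-0.46), a pyruvate dehydrogenase kinase gene, and GAPDH (-0.44) fell. PFKL (0.41), a phosphofructokinase, rose. LDHA, lactate dehydrogenase, named after its values were seen, fell from 2019 ± 71.7 to 1531 ± 50.4 CPM (-0.40), while PGK1, named likewise, had -0.12 and did not pass (adjusted p = 0.0621 by edgeR).

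**Figure D4:**
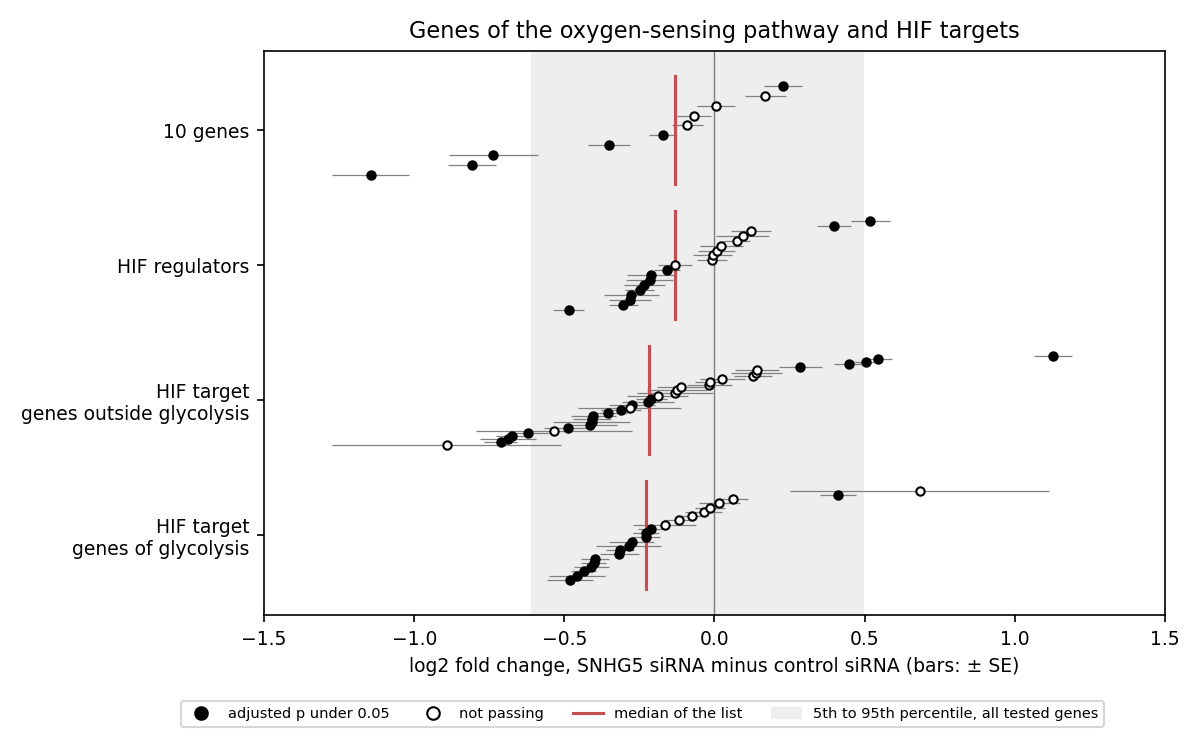
Log2 fold change with its SE for the 10 genes and the tested genes of the 3 lists, SNHG5 siRNA minus control siRNA; filled points passed at an adjusted p under 0.05, red lines are medians, and the grey band is the 5th to 95th percentile of all tested genes (-0.61 to 0.49). Of the 10 genes, EGLN3, NDRG1 and CA9 lie left of the band. Listed genes also lie outside it, among them EFNA1 (-0.89, not passing) and PLOD2 (-0.71) to the left. ERO1A (1.13) lies far to the right, and ALDOC (0.68, not passing) and LOX (0.55) also lie right of it.

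The genes whose log2 CPM followed EGLN3 most closely over the 6 libraries were TNFAIP8L1, IER5L, HLA-F, DAXX and SERTAD1, with Pearson correlations of 0.995 to 0.998 and log2 fold changes of -0.65 to -0.27. These points share the group difference and the library depths, and 409 of 10466 genes with a mean of at least 5 CPM had a correlation of at least 0.95.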

How the data were processed

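The authors deposited whole-number counts per gene name and FPKM for the same 6 libraries, made with the SMARTER mRNA-seq kit per the labels. Reads were trimmed with Trimmomatic and GRCh38 was used, per the submitters' processing notes; the aligner, counter, annotation and strand setting are not given in the sources used here. For CPM, library sizes were multiplied by TMM factors from edgeR 4.0.16 under R 4.3.3. The filter filterByExpr kept 12508 genes, all 10 described here among them, and edgeR's quasi-likelihood test ran on these with Benjamini-Hochberg adjustment. Another 7522 names were not tested. SE is the absolute log2 fold change divided by the root of the F statistic, and 95% intervals use it. FPKM served for levels between genes, for shares, and, in limma 3.58.1, as an alternative. Positions and 3' UTRs come from GENCODE v29. DESeq2 1.42.0 was another alternative. A count of 3, the detection floor, is 0.136 to 0.165 CPM and covers counting error only. The fits were also run on simulated counts, with far fewer changed genes than passed here. That run checks the code and is no support for the results. Plots used matplotlib 3.10.9.

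The genes, the 3 lists and the rule for named genes (per list, the passing genes with the largest absolute change, at most 5, plus every passing gene where 3 or fewer passed in a direction; and the 5 genes of at least 5 CPM most correlated with EGLN3) were chosen with earlier results of these data known. The values of 1 listed gene are not reported here.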

Additional observations from a re-analysis of the deposited data

How the results depend on the processing

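The 10 genes gave 150 values over 15 alternatives (other scaling, test, filter or unit, the replicate block, GC or length trend removed, 1 library left out). Of these, 137 kept direction and call. The count of lower genes stayed at 5 with any 1 library left out. The count of higher genes, 1, was 2 with the replicate block, with FPKM and 0.1 added, and with the length trend removed, where ARNT also passed (0.17, 0.21 and 0.16), and 0 to 2 with 1 library left out. VHL, near 0, turned to -0.037 with upper quartile scaling, -0.012 and -0.016 with the GC and length trends removed, and ran from -0.025 to 0.066 with 1 library left out. Regulators called lower numbered 4 in FPKM with 1 or 0.1 added, against 9, which left 31.6% of them passing, against 31.9% and 32% of all genes. PGK1 passed with upper quartile scaling, the replicate block and either trend removed (-0.16 to -0.12), and ADM did not pass in FPKM (-0.31 and -0.35). The EGLN3 share fell by 4.69 percentage points, and fell by 2.70 from counts with no length scaling. The causes of these changes were not tested.

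Same-numbered libraries had correlations of their deviations of 0.079, 0.167 and 0.0321, and 4 of 6 libraries correlated best with their own number. These values do not settle whether the numbers pair the libraries, and the main fit used no pairing. With the replicate block, 45.7% of all genes tested passed, against 40.2% without it.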
